A study of Macaca mulatta with 6 samples.

Results

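The genes described here are receptors for acetylcholine, namely the muscarinic receptor genes CHRM1, CHRM2, CHRM3 and CHRM4 and the neuronal nicotinic subunit genes CHRNA2, CHRNA4, CHRNA7 and CHRNB2. They were chosen by name, as rows of the deposited expression table whose rhesus gene identifier carries 1 of these 8 symbols. Of the 8, 7 had a row among 23191 genes, and all 7 had a mean of at least 10 normalized counts, the level above which 16595 genes were tested. CHRM2, the other inhibitory muscarinic receptor, was not analysed here. A normalized count is the number of reads of a gene divided by a size factor of its library.

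The libraries were made from polyadenylated RNA of cortical cells, labelled as purified adult neurons, of rhesus monkeys (Macaca mulatta) that were male and 3 to 4 years old, in a study of chromatin folding after chronic morphine. In the morphine group (3 libraries) animals received morphine, an opioid, under the skin 3 times daily over 90 days, with the dose raised in steps from 3 mg/kg to 15 mg/kg from day 29 on. In the saline group (3 libraries) animals received injections of saline at 0.5 mL/kg on the same schedule. The labels name no genetic change in either group. The treatment protocol gives 2 monkeys per group, and every library of a group bears the same animal-like code in its description. Some libraries of a group therefore share an animal, p-values over libraries are too small as tests over animals, and the effect of morphine and a difference between individual monkeys cannot be told apart.

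Muscarinic receptors are G protein-coupled receptors. CHRM1 and CHRM3 act through Gq proteins, which activate phospholipase C, whereas CHRM2 and CHRM4 act through Gi proteins, which inhibit adenylyl cyclase. Nicotinic receptors are cation channels assembled from several subunits. CHRNA4 and CHRNB2 together form the main high-affinity nicotine receptor of the brain, CHRNA7 can form channels by itself, and CHRNA2 joins beta subunits in a restricted set of neurons. In the cortex, acetylcholine comes mostly from axons of basal forebrain neurons and acts on these receptors in attention and arousal.

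With morphine, transcripts of CHRNA4 and CHRM3 were lower in every library, and those of the other 5 measured receptors did not pass the test. CHRNA4, the alpha subunit of the high-affinity nicotinic receptor, fell 1.79-fold, and CHRM3, a Gq-coupled muscarinic receptor, fell 1.48-fold. Thus 2 of 7 members (28.6%) fell and 0 rose at an adjusted p under 0.05 in limma, a linear model fitted across all genes. Over all genes tested 27.9% were called, 12.9% as rises and 15.0% as falls, and among genes with a mean of at least 100 normalized counts, as all 7 members have, 32.2% were called. With all 6 libraries the share of members called was near these backgrounds. With any 1 library left out, the share of all genes called was 15.3% to 19.2%, and the same 2 members were called. The median log2 fold change of the 7 members was 0.09, against 0.01 over all genes tested.

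**Figure D1:**
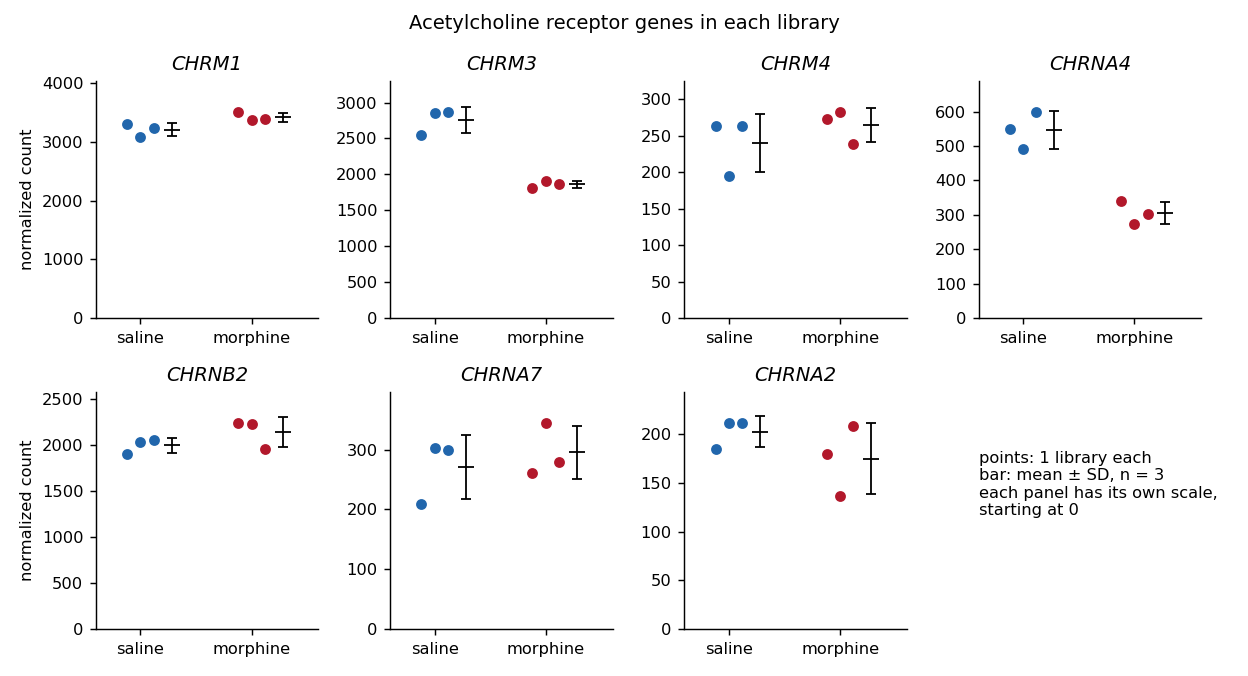
Normalized count of each measured receptor gene in each library (points, saline in blue, morphine in red), with the mean and SD of 3 libraries beside them, on axes that start at 0. The groups stand apart for CHRM3 and CHRNA4, lie close together for CHRM1, and overlap for the other 4 genes.

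Among the muscarinic genes, CHRM3 (ENSMMUG00000021442) had 1814, 1906 and 1873 normalized counts in morphine libraries 1, 2 and 3, against 2549, 2848 and 2869 in the saline libraries. The highest morphine library lay below the lowest saline library. The means were 1864 ± 46.3 with morphine and 2755 ± 179 with saline (SD, n = 3 libraries per group). The log2 fold change was -0.56 ± 0.0673 (SE), with a 95% interval from -0.73 to -0.39 and a limma adjusted p of 0.00592.

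CHRM1 (ENSMMUG00000017292), the other Gq-coupled member and a receptor of cortical pyramidal neurons, had 3512, 3368 and 3393 normalized counts in the morphine libraries and 3304, 3089 and 3243 in the saline libraries. The morphine values were all slightly above the saline values, with means of 3424 ± 77.2 and 3212 ± 111 (SD, n = 3 libraries per group). The difference of 6.62%, or 0.09 ± 0.0528 (SE) as a log2 fold change, did not pass in limma (adjusted p = 0.247), and its 95% interval ran from -0.04 to 0.23 on the log2 scale.

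CHRM4 (ENSMMUG00000039412), the measured Gi-coupled member, was less precisely measured. It had 273.1, 282.3 and 238.3 normalized counts in the morphine libraries and 262.5, 194.5 and 262.6 in the saline libraries. The groups overlapped, with saline library 2 the lowest of all. The log2 fold change of 0.15 ± 0.148 (SE) did not pass (limma adjusted p = 0.483), and the interval from -0.22 to 0.52 includes changes in both directions. Without saline replicate 2 the value was 0.01.

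Among the nicotinic genes, CHRNA4 (ENSMMUG00000015916) had 339.0, 274.2 and 302.7 normalized counts in morphine libraries 1, 2 and 3, against 550.6, 490.1 and 599.0 in the saline libraries. Every saline library was well above every morphine library. The means were 305.3 ± 32.5 and 546.6 ± 54.5 (SD, n = 3 libraries per group), a fall of 44.1% in normalized counts. On the log2 scale the change was -0.84 ± 0.115 (SE), with a 95% interval from -1.13 to -0.55 and a limma adjusted p of 0.00798.

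CHRNB2 (ENSMMUG00000016089), the beta subunit that assembles with CHRNA4, did not fall. Its values were 2244, 2224 and 1953 normalized counts with morphine and 1901, 2033 and 2052 with saline. The groups overlapped, because morphine library 3 lay within the saline range. The log2 fold change was 0.10 ± 0.0773 (SE), with an interval from -0.10 to 0.29 and a limma adjusted p of 0.382.

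CHRNA7 (ENSMMUG00000022577), whose channels are highly permeable to calcium, had 261.4, 345.0 and 279.6 normalized counts in the morphine libraries and 208.2, 302.7 and 299.5 in the saline libraries. Saline library 1 was the lowest, and the groups overlapped. The log2 fold change was 0.14 ± 0.191 (SE; limma adjusted p = 0.620, interval from -0.35 to 0.62), and it was -0.04 without saline replicate 1.

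CHRNA2 (ENSMMUG00000021514) had 179.6, 136.2 and 208.5 normalized counts with morphine and 184.5, 211.5 and 212.0 with saline. Morphine library 2 was low and morphine library 3 lay among the saline libraries. The log2 fold change of -0.23 ± 0.172 (SE) did not pass (limma adjusted p = 0.361, interval from -0.67 to 0.20), and it was -0.06 without morphine replicate 2. Together, the values of 3 of the 7 members (CHRM1, CHRM3 and CHRNA4) did not overlap between the groups, which is 42.9%, against 48.7% of all genes tested.

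How finely the members were measured differed with the number of reads and with the spread between libraries. Over the 6 libraries CHRM1 had 3075 to 3710 reads and CHRNB2 1927 to 2450, whereas CHRNA2 had 150 to 217 reads. Counting alone gives a coefficient of variation of 1.73% for CHRM1, 2.08% for CHRM3, 4.85% for CHRNA4 and 7.27% for CHRNA2. The spread between libraries of a group was larger than that, at 2.48% (morphine) and 6.49% (saline) for CHRM3 and 10.6% and 9.98% for CHRNA4. It reached 20.8% for CHRNA2 in the morphine libraries and 19.9% for CHRNA7 in the saline libraries. Changes of the size seen in CHRM3 were thus hard to detect in CHRNA2 and CHRNA7. The log2 interval of CHRNA2, from -0.67 to 0.20, contains a fall of that size. That of CHRNA7, from -0.35 to 0.62, contains a rise of that size but not such a fall.

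**Figure D2:**
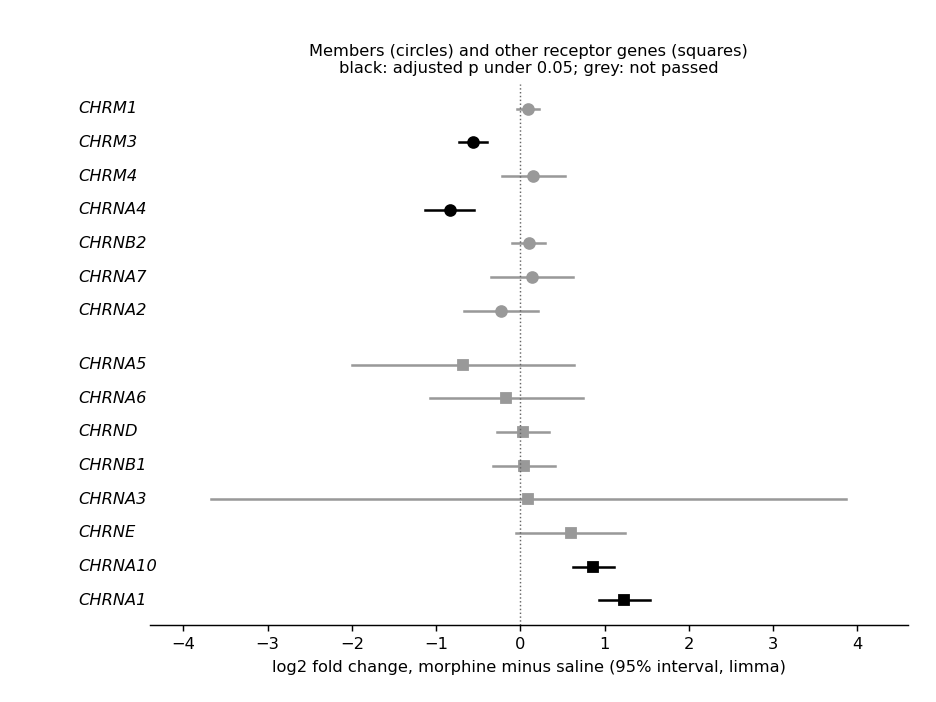
Log2 fold change, morphine minus saline, with its 95% interval for the 7 measured members (circles) and 8 further acetylcholine receptor genes (squares), black where the limma adjusted p was under 0.05. CHRM3 and CHRNA4 lie below 0 at -0.56 and -0.84, and CHRNA10 and CHRNA1 lie above it at 0.87 and 1.23.

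Subunits of the same receptor, or receptors of the same coupling, were set against each other inside each library, a measure that does not depend on how libraries are scaled. There were 0.151, 0.123 and 0.155 normalized counts of CHRNA4 per normalized count of CHRNB2 in morphine libraries 1, 2 and 3, against 0.290, 0.241 and 0.292 in the saline libraries. The morphine ratios were all lower, at 0.143 ± 0.0173 against 0.274 ± 0.0287 (SD, n = 3 libraries per group), with a log2 difference of -0.94 (two-sided exact permutation test, p = 0.1, the smallest that 3 against 3 libraries allow). The ratio is of reads and not per transcript length, so it gives no number of subunits.

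CHRM3 relative to CHRM1 gave 0.516, 0.566 and 0.552 in the morphine libraries and 0.772, 0.922 and 0.885 in the saline libraries. The groups were again apart, with means of 0.545 ± 0.0254 and 0.859 ± 0.0783 (SD, n = 3 libraries per group). The log2 difference was -0.65, at the same smallest p of the two-sided exact permutation test, p = 0.1. The 2 genes whose proteins couple to Gq thus differed from each other in their change by more than the spread between libraries of a group.

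**Figure D3:**
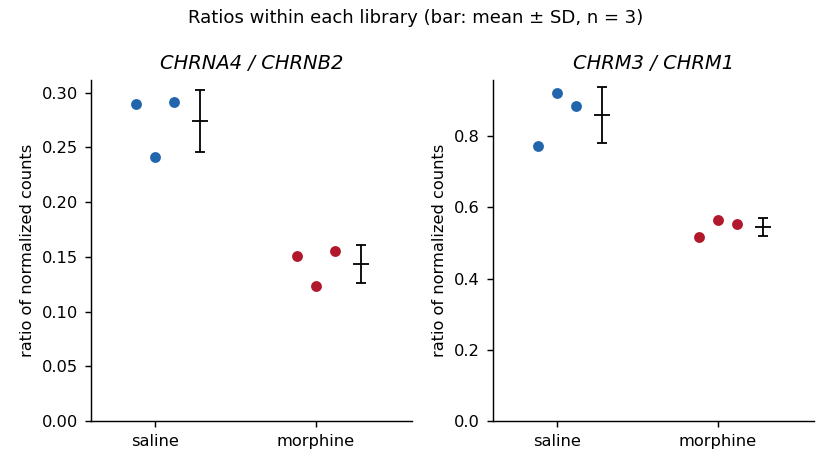
Ratio of normalized counts of CHRNA4 to CHRNB2 and of CHRM3 to CHRM1 within each library (points), with the mean and SD of 3 libraries, on axes that start at 0. All 3 morphine libraries lie below all 3 saline libraries in both panels.

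Profiles over the 6 libraries were also compared directly, as the Euclidean distance between log2 values after each gene's own mean was removed. The closest members were CHRM1 and CHRNB2 (distance 0.203), and CHRM3 and CHRNA4 lay 0.499 apart. The most distant members were CHRNA4 and CHRNA7, at 1.39. Outside the family, the nearest genes to CHRM3 were CD58 and LRRC49, at distances of 0.0704 and 0.0757. Those nearest to CHRNA4 were FKBP14, FREM3 and PHF6, at 0.178, 0.197 and 0.202. These distances over 6 libraries describe likeness of profile and were not tested.

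The calls of CHRM3 and CHRNA4 did not rest on 1 library or on the choice of test. In the 6 fits that left out 1 library each, the limma adjusted p lay between 0.0145 and 0.0271 for CHRM3 and between 0.0201 and 0.0329 for CHRNA4. On reads recovered from the values, edgeR gave adjusted p-values of 0.000311 for CHRM3 and 0.00134 for CHRNA4, and DESeq2 gave 2.33e-14 and 1.6e-07. In the authors' deposited table the log2 fold changes were -0.56 for CHRM3 (adjusted p = 7.05e-14) and -0.84 for CHRNA4 (adjusted p = 8.77e-07). Each of these comparisons called 2 of the 7 members, against 34.0% of genes tested in edgeR, 36.8% in DESeq2 and 29.5% in the authors' deposited table. Of the members, CHRNA4 alone is in the authors' deposited list of 2332 genes, which holds no gene with an absolute log2 fold change under 0.585.

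Neuronal transcripts themselves differed between the groups. Among 10 pan-neuronal markers, falls numbered 6 and rises 2 (80% called, against 27.9% of all genes tested). The summed level of the 10 markers was 191180 to 195680 normalized counts in the morphine libraries and 242990 to 252610 in the saline libraries. The falls included NEFL, a neurofilament subunit (log2 fold change -0.73), and SNAP25, a protein of vesicle fusion (-0.54). Much of the sum was SNAP25, with means of 69525 normalized counts with morphine and 101040 with saline. The rises were those of RBFOX3 (0.22) and TUBB3 (0.23). In limma the rises did not pass without any 1 of the 6 libraries, when 5 or 6 markers fell and 0 rose. The share of all genes called was then 15.3% to 19.2%. With all 6 libraries edgeR, DESeq2 and the authors' deposited table each called 3 rises, beside 6, 7 and 6 falls. Of all genes tested they called 34.0%, 36.8% and 29.5%. For excitatory neurons 2 of 11 markers passed (18.2%, below the 27.9% of all genes), both as falls, but 0 or 1 with a library left out. For inhibitory neurons 3 of 8 markers passed (37.5%), 2 as rises and 1 as a fall, and 2 or 3 with a library left out. In such bulk RNA, fewer cells of a type and less RNA per cell cannot be told apart.

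The members were therefore also measured relative to the mean log2 level of neuron markers, a scaling chosen after the data had been seen. Relative to the pan-neuronal markers CHRNA4 was lower by a log2 change of -0.61 (limma adjusted p = 0.0144) and CHRM3 by -0.33 (adjusted p = 0.0174). On that scale CHRM1 and CHRNB2 passed as higher, with 0.32 (adjusted p = 0.0137) and 0.33 (adjusted p = 0.0335), so that 4 of 7 members were called where 39.3% of all genes were. This scaling moved the median log2 fold change of all genes to 0.24, and CHRM1 and CHRNB2 exceeded that median by little. Relative to excitatory neuron markers CHRNA4 and CHRM3 changed by -0.81 and -0.53, and relative to inhibitory neuron markers by -0.92 and -0.64. Under each of the 3 marker scalings both passed, and CHRNA2, CHRNA7 and CHRM4 did not.

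**Figure D4:**
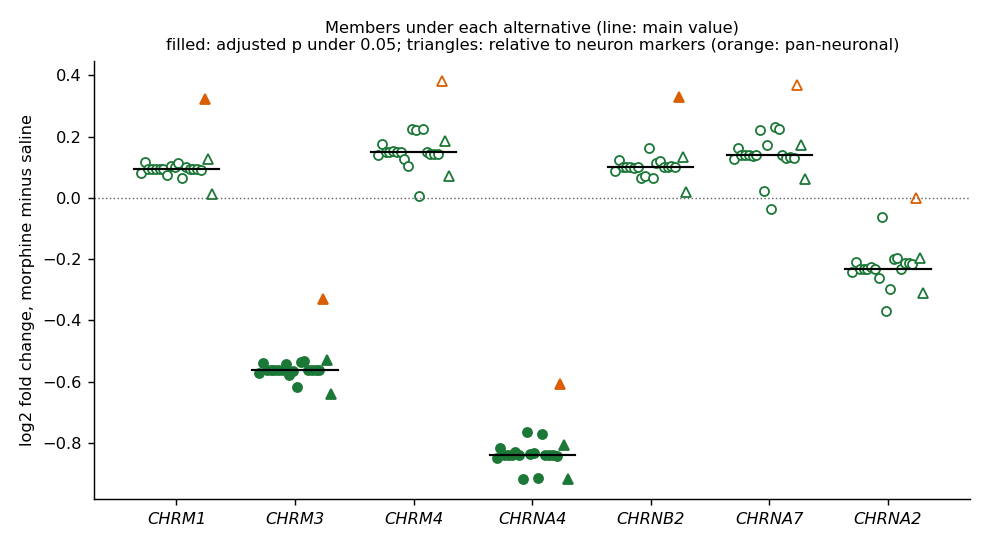
Log2 fold change of each measured member under 20 alternative settings (symbols, filled where the adjusted p was under 0.05), with the main value as a line and the 3 scalings to neuron markers as triangles. All symbols of CHRM3 and CHRNA4 are filled and below 0, from -0.64 to -0.33 and from -0.92 to -0.61, and CHRM1 and CHRNB2 are filled only for the pan-neuronal scaling (orange).

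The libraries are labelled as neurons and also held glial transcripts. Recovered depth was 31238653 to 36345095 reads per library. The markers counted here had a mean of at least 10 normalized counts, so none of them could be at 0 throughout. Over all genes tested 27.9% were called, 12.9% as rises and 15.0% as falls. With a library left out it was 15.3% to 19.2%. The share called was 100% of astrocyte and of microglia markers, 66.7% of oligodendrocyte and 50% of precursor markers. It was 75% of the genes listed as endothelial and mural markers. All 6 measured astrocyte markers were called, 5 as falls and 1, GFAP, as a rise (log2 fold change 0.41). Their summed level was 163600 to 165170 normalized counts with morphine and 218900 to 225290 with saline. Much of that sum was SLC1A3, with means of 82480 with morphine and 123560 with saline. Of 6 microglia markers 4 rose and 2 fell (1 or 2 falls with a library left out), with a summed level of 7533 to 8035 against 5186 to 5505. Oligodendrocyte markers summed to 264540 to 266630 with morphine and 257650 to 262320 with saline, with 3 rises and 1 fall among 6, of which 1 or 2 rises passed with a library left out. Among 4 precursor markers 2 rose (1 with any library left out). Among 8 genes listed as endothelial and mural markers 3 rose, namely COL1A1, COL1A2 and ACTA2 (log2 fold changes 3.54, 2.34 and 0.78), and 3 fell. COL1A1 and COL1A2 are collagen genes and not specific to endothelial or mural cells. The falls were those of RGS5, FLT1 and PECAM1 (-0.68, -0.61 and -0.52), and VWF and PDGFRB did not pass. The part of these differences in the falls of CHRNA4 and CHRM3 was not tested.

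Of 13 further acetylcholine receptor genes listed, 8 were measured, and 2 rose and 0 fell. CHRNA1 (ENSMMUG00000021796), the alpha subunit of the muscle receptor, had 383.7, 472.1 and 354.6 normalized counts with morphine and 163.8, 166.4 and 179.3 with saline. The groups were far apart, and the log2 fold change was 1.23 ± 0.121 (SE, limma adjusted p = 0.00404). CHRNA10 (ENSMMUG00000003949), known from inner ear hair cells, had 128.6, 129.8 and 153.7 against 70.1, 75.2 and 79.1 normalized counts. It rose by 0.87 ± 0.0951 on the log2 scale (SE, limma adjusted p = 0.00498), and both rises passed in all 6 fits without 1 library. These are 25% of the 8 genes, below the 27.9% called among all genes.

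CHRNE, the epsilon subunit of the muscle receptor, and CHRNA5, an accessory subunit of the CHRNA4 and CHRNB2 receptor, did not pass, with log2 fold changes of 0.60 ± 0.255 and -0.68 ± 0.520 (SE). CHRNA5 was low, at 6.38 to 28.1 normalized counts over the libraries. CHRNA3, singled out after its values had been seen, ranged from 12.7 to 128.8 normalized counts within the morphine group and from 4.22 to 126.3 within the saline group. Its highest values were in morphine library 3 and saline library 2. CHRM5, CHRNA9, CHRNB4 and CHRNG were below the level for testing, with at most 11 reads in any library.

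Acetylcholine is made by choline acetyltransferase (CHAT) and loaded into vesicles by the transporter SLC18A3. As transcripts of the source neurons these were near 0, below the level for testing. CHAT had 11 reads in morphine library 2 and 0 in the other 5 libraries, where a count of 0 allows up to 3 reads (counting error only). For SLC18A3 the morphine libraries gave 20, 16 and 7 reads and the saline libraries 3, 0 and 0. The gene SLC18A3 lies inside CHAT, so reads of both genes cannot always be told apart. LHX8, a transcription factor of forebrain cholinergic neurons that was singled out after its values had been seen, had 12, 12 and 5 reads with morphine and 0 in each saline library. The few reads of SLC18A3 and LHX8 were thus mostly in the morphine libraries. SLC5A7, the choline transporter of cholinergic terminals, was not analysed here.

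Of 8 genes for the synthesis, transport and breakdown of acetylcholine, 3 were measured and 0 passed in limma. At an unadjusted p under 0.05 limma gave 0 of the 3 as well. At an adjusted p under 0.05, edgeR called 1 and DESeq2 called 2, where they called 34.0% and 36.8% of all genes tested. The choline transporter SLC44A1 had a log2 fold change of -0.27 ± 0.109 (SE; adjusted p = 0.124 in limma, 0.049994 in edgeR and 0.00648 in the authors' deposited table). PRIMA1, which anchors acetylcholinesterase in the membrane, changed by 0.76 ± 0.384 and the cholinesterase BCHE by 0.23 ± 0.183 (SE), and neither passed in limma. PRIMA1 was the other gene that passed in DESeq2 (adjusted p = 0.0409).

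Of 11 proteins that assemble or modulate nicotinic receptors, 7 were measured, and 2 fell and 0 rose. These are 28.6% of the 7 genes, near the 27.9% of all genes tested that were called (15.0% as falls). VSNL1, a calcium sensor that binds the CHRNA4 subunit, had 20105, 20692 and 20429 normalized counts with morphine and 33658, 34241 and 33717 with saline. The 2 groups were narrow and far apart, with a log2 fold change of -0.73 ± 0.0453 (SE, limma adjusted p = 0.00192). UBQLN1, a ubiquilin of protein turnover, fell by 0.46 on the log2 scale (limma adjusted p = 0.00903). LYPD6, a surface protein that modulates nicotinic currents, had a log2 fold change of -0.36 ± 0.124 (SE) and did not pass in limma (adjusted p = 0.0882), but passed in edgeR (0.0424) and without morphine replicate 1 (0.0376). CRELD2, a chaperone-like protein of the endoplasmic reticulum, did not pass (0.19 ± 0.0658 SE, limma adjusted p = 0.0942).

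Downstream of the Gq-coupled receptors CHRM1 and CHRM3, 11 of 12 listed genes were measured, and 4 fell and 2 rose. That is 54.5% of the 11 genes, against 27.9% of all genes tested. ITPR1, the calcium release channel opened by inositol trisphosphate, went from 9925 ± 263 to 6127 ± 83.3 normalized counts (SD, n = 3 libraries per group). On the log2 scale it fell by 0.70 ± 0.0485 (SE, limma adjusted p = 0.00226). KCNQ5, a potassium channel of the M current that muscarinic receptors suppress, fell by 0.82, and PRKCB, a protein kinase C, fell by 0.53. Outside the rule for named genes, PLCB4, a phospholipase C, fell by 0.63. These 4 falls passed whichever library was left out, while the count of rises was then 1.

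Downstream of the Gi-coupled receptors, 8 of 10 listed genes were measured, and 2 fell and 1 rose. That is 37.5% of the 8 genes, against 27.9% of all genes tested. GNAI3 and GNAI1, both inhibitory G protein alpha subunits, fell by 0.52 and 0.38 on the log2 scale (limma adjusted p = 0.00789 and 0.0302). The adenylyl cyclase ADCY5 rose by 0.28 (limma adjusted p = 0.0128), and ADCY6 did not pass in limma (0.24 ± 0.0697 SE, adjusted p = 0.0580). ADCY6 passed in edgeR (adjusted p = 0.0175), in DESeq2 (0.00136) and in the authors' deposited table (0.00209). The fall of GNAI1 was lost when morphine replicate 1 or 2 was left out (limma adjusted p = 0.0892 and 0.0915), and likewise for saline replicate 1 or 2 (0.0835 and 0.0829). Over these 5 lists of the cholinergic system 13 of 37 measured genes were called (35.1%), 8 as falls and 5 as rises. Of all genes tested 27.9% were called, and 32.2% of those with a mean of at least 100 normalized counts, as most of the 37 have. With a library left out 11 to 13 were called, where the share of all genes, those of lower counts included, was 15.3% to 19.2%. With all 6 libraries the median absolute log2 fold change of the 37 genes was 0.27 against 0.26 over all genes. The astrocyte, microglia and pan-neuronal markers moved between the same libraries as given above, and their part in these counts was not tested.

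**Figure D5:**
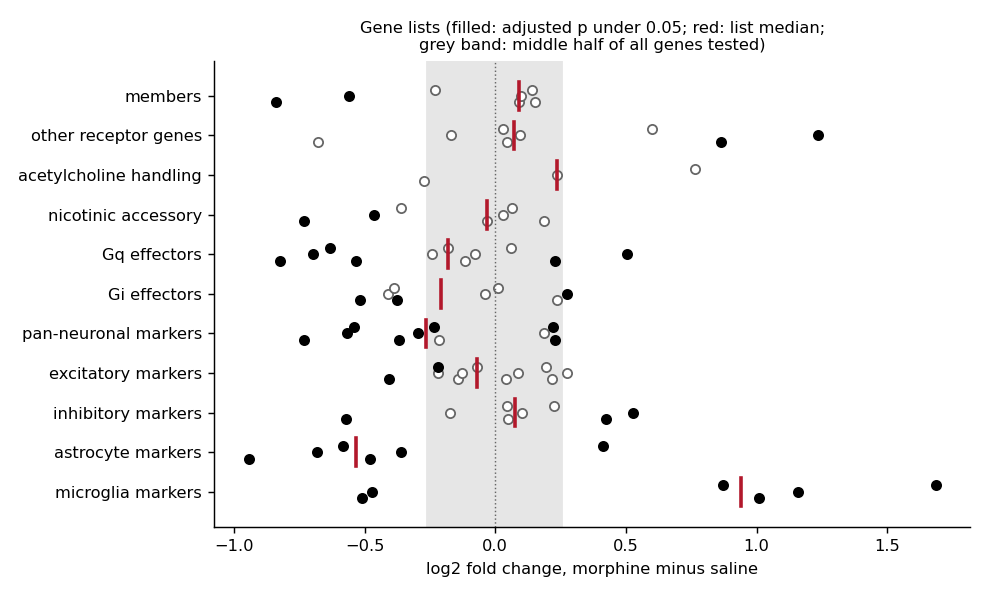
Log2 fold change, morphine minus saline, of each measured gene by list (points, filled where the limma adjusted p was under 0.05), with the list's median in red and the range between the quartiles of all genes tested (-0.26 to 0.26) as a grey band. Members and cholinergic lists have genes on both sides of 0, the astrocyte markers lie mostly below it with a median of -0.53, and the microglia markers have a median of 0.94.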

How the data were processed

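RNA was sequenced in 6 libraries, grouped by their titles. Per the submitters' processing notes, Bowtie2 2.1.0, StringTie, DESeq2 1.18.1 and the build hg19 were used, with no role given. Since the identifiers are those of rhesus genes, the build used for counting is not settled and no coordinates are given. The labels and headers do not give the use of strand. Symbols came from a table of gene names (15436 of 23191 identifiers matched).

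The authors deposited normalized counts per library, a signal of reads divided by a size factor, per the file headers and the values. Their table also holds the authors' log2 fold changes, test statistic (a score) and p-values. Dividing by the worth of 1 read gave whole reads within 0.001 for 100% of values.

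The test was limma 3.58.1 (R 4.3.3) on log2(value + 1), a scale that understates changes of low genes, over genes with a mean of at least 10, with group as the only term and Benjamini-Hochberg adjustment over all of them. Rises and falls are changes with an adjusted p below 0.05. Alternatives were other scalings, filters and pseudocounts, a replicate block, fits leaving out 1 library each, limma with an intensity trend, edgeR 4.0.16, DESeq2 1.42.0 and the authors' deposited comparison. Scaling to neuron markers was added after seeing the data. The scripts were tested on simulated data. Replicates within a group differed by more than sampling noise (mean chi-square over genes 17.5 to 23.8, where noise gives about 1). The median over genes was lower, at 2.60 to 3.19, so genes with large values raised the mean. Same-numbered libraries did not deviate together (r from -0.0563 to -0.00392), so the numbers were not taken as pairs.

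The members and lists were chosen with earlier results of these data known. Named genes were the members, up to 4 measured genes per list by smallest adjusted p, the 3 nearest profiles to the 2 members with the smallest adjusted p, and CHAT, SLC18A3 and SLC5A7. Of the marker lists, few genes are named, and some genes that the rule names are not reported here. A planned ratio of CHRM2 to CHRM4 was not computed.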

Additional observations from a re-analysis of the deposited data

How the results depend on the processing

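CHRM3 and CHRNA4 fell and passed in all 20 alternatives (3 of them, the scalings to neuron markers, added after the data had been seen). Their log2 fold changes ran from -0.64 to -0.33 and from -0.92 to -0.61. The 2 calls among the members became 4 with scaling to pan-neuronal markers and stayed at 2 in the other 19. With the replicate number as a block, 2 members were called (adjusted p = 0.0428 for CHRM3 and 0.0426 for CHRNA4), but the count over the 5 cholinergic lists went from 13 to 8 and that over all genes from 4631 to 1577. Without 1 library 11 to 13 genes of these lists were called, and 2529 to 3182 of all genes, and the unfiltered table gave 2993 calls and scaling to inhibitory neuron markers 2091. The count on the lists was 18 in DESeq2, where 36.8% of all genes were called. It was also 18 relative to pan-neuronal markers, 11 of them rises, where 39.3% of all genes were called. That scaling moved the median log2 fold change of all genes to 0.24. Of the members that did not pass, CHRNA7 changed sign without saline replicate 1 (-0.04). The log2 difference in the ratio of CHRNA4 to CHRNB2 lay between -1.03 and -0.84 without 1 library, and that of CHRM3 to CHRM1 between -0.73 and -0.60. CHRNA2, CHRNA7 and CHRM4 rest on 150 to 380 reads per library, and CHRNA4, which passed, on 302 to 568. The spread between libraries of a group reached 20.8% for CHRNA2 and 19.9% for CHRNA7, against counting errors of 7.27% and 5.92%. Reads and spread both limit what could be detected.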
